A study of Mus musculus with 17 samples.

Results

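Transcript levels of 7 genes that act as spermatogonia leave the undifferentiated state were followed across sorted germ cells of the mouse testis. The genes were Kit, Stra8, Sohlh1, Sohlh2, Dmrt1, Dmrtb1 and Rhox13, chosen by name with earlier results of these data known. Each had 1 row of its own among the 24013 gene rows of the count table. All 7 passed the filter on low counts and were among the 15451 genes tested. The 17 RNA sequencing libraries fell into 4 groups. The adult groups came from Tert-Tomato/+ reporter mice on a mixed B6/J and B6/N background. They were GFRa1+ TERT-High Kit- cells (GFRA1pos, n = 4), GFRa1- TERT-High Kit- cells (GFRA1neg, n = 4) and TERT-High Kit+ cells (KITpos, n = 5). The neonatal group held TERT+ OCT4-GFP+ gonocytes from mice at postnatal day 6 (P6gonocyte, n = 4), whose genotype label also gives only Tert-Tomato/+. All groups thus carry the Tert reporter allele, and each adult gate asks for high reporter signal. Whether libraries of one group are from different animals is not stated in the labels, so p-values measure only the spread between libraries, which may be technical.

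Spermatogonia that self-renew lack surface KIT, and the gain of this receptor tyrosine kinase marks the passage to differentiating spermatogonia under the control of retinoic acid. STRA8 is induced by retinoic acid and is needed for entry into meiosis. SOHLH1 and SOHLH2 are germ cell transcription factors of the basic helix-loop-helix family that promote Kit expression. DMRT1 and DMRTB1 (also called DMRT6) are DM-domain transcription factors: DMRT1 holds back premature meiosis in spermatogonia, and DMRTB1 acts as differentiating cells pass towards meiosis. RHOX13 is a homeobox protein of the X-linked reproductive homeobox cluster, made in differentiating germ cells.

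The GFRA1pos and GFRA1neg comparison asks how far these regulators already differ among Kit-negative cells. The comparisons with KITpos and P6gonocyte ask which of them differ in Kit-positive adult cells and in neonatal gonocytes. Stra8 and Rhox13 were highest in KITpos, at 249 CPM ± 59.5 (SD, n = 5) and 44.7 CPM ± 8.84 (SD, n = 5), and next highest in P6gonocyte. Sohlh1 had another order, with GFRA1neg at 69.6 CPM ± 13.2 (SD, n = 4) and GFRA1pos lowest at 32.7 CPM ± 6.14 (SD, n = 4). Sohlh2 and Dmrt1 were highest in P6gonocyte by mean, at 113 CPM ± 7.51 and 146 CPM ± 12.8 (SD, n = 4 each). CPM here is a gene's count scaled to a common library total, with totals adjusted by TMM. It is not scaled by gene length, so levels are compared between libraries and not between genes.

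**Figure D1:**
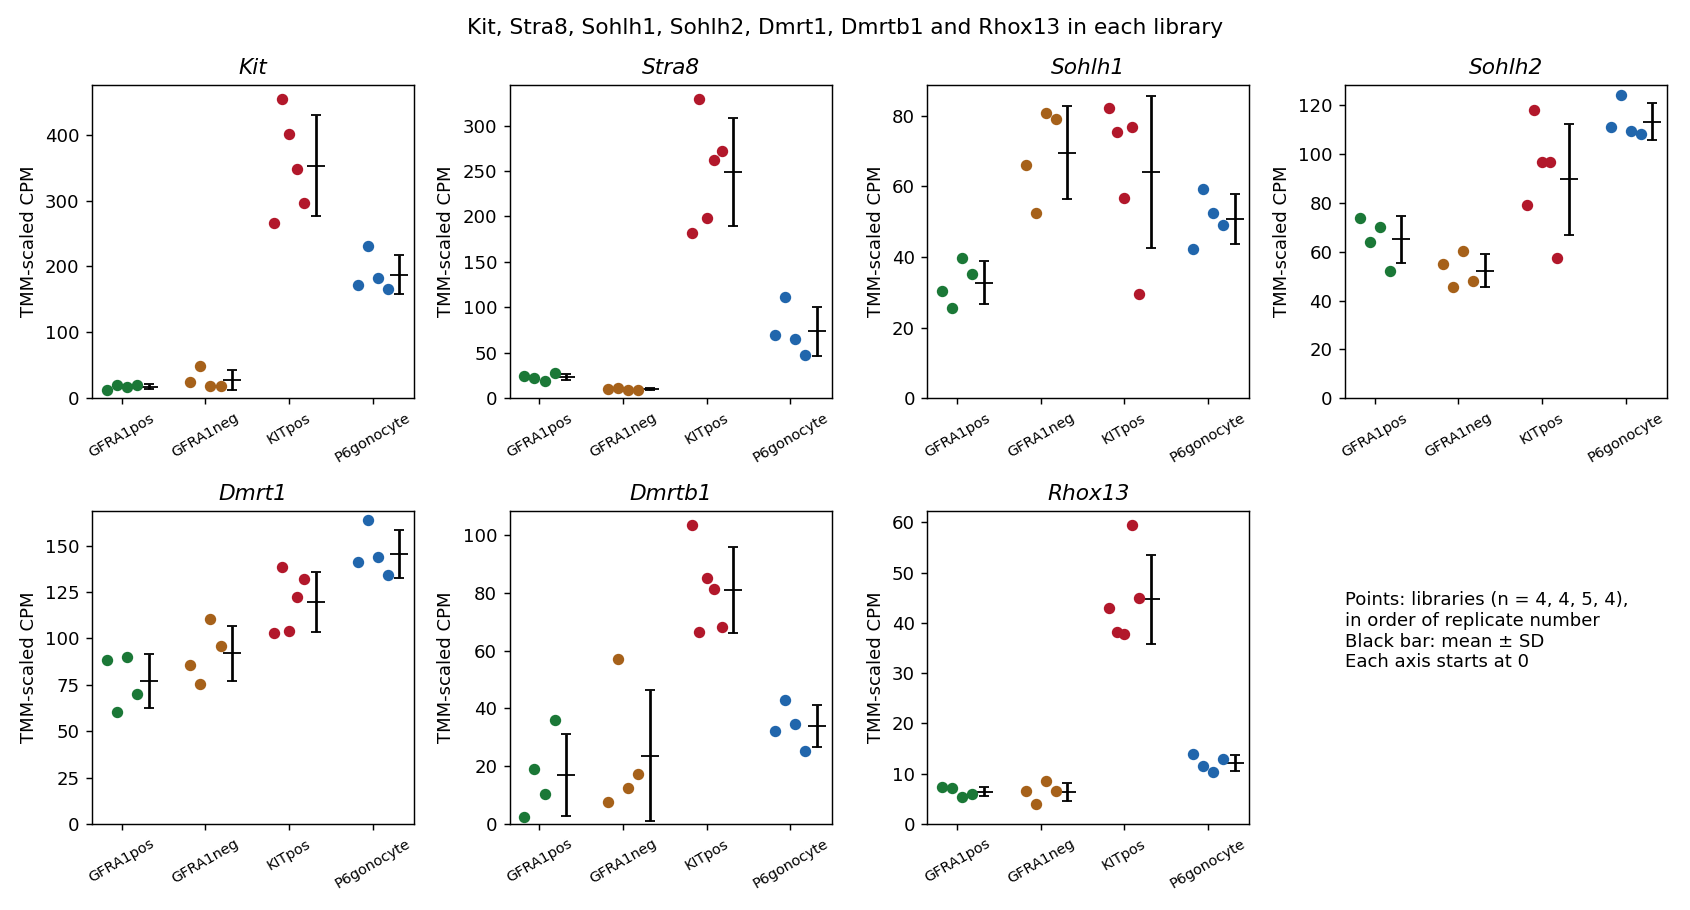
Level of each of the 7 genes in every library, in TMM-scaled CPM on axes that start at 0, by sorted group, with points in order of replicate number and a black bar for the mean ± SD. Stra8 and Rhox13 lie highest in all 5 KITpos libraries, Sohlh1 lies lower in all GFRA1pos than in all GFRA1neg libraries, and Dmrtb1 spreads from 2.57 to 57.1 CPM among the Kit-negative adult libraries.

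A gene was called where edgeR's quasi-likelihood test gave a Benjamini-Hochberg adjusted p under 0.05, over all genes tested. Between the Kit-negative groups GFRA1pos and GFRA1neg 2 of the 7 genes were called, Stra8 higher and Sohlh1 lower, where 14.1% of all genes were called, 7.30% higher and 6.84% lower. These 2 were also the genes whose libraries did not overlap, beside 23.3% of all genes. Kit was a sort gene in every other comparison and was given no test there. In KITpos against GFRA1neg 5 of the other 6 were called, all higher, where 45.1% of all genes were called, 22.1% higher and 23.0% lower. For 3 of the 6 the libraries did not overlap, beside 33.8% of all genes. In KITpos against GFRA1pos all 6 were called higher, where 48.6% of all genes were called, 24.9% higher and 23.7% lower. Here 4 of the 6 did not overlap, beside 37.2% of all genes. P6gonocyte was higher than GFRA1pos for 5 of 6, beside 39.2% of all genes called, 17.3% higher and 21.9% lower, and these 5 did not overlap, beside 41.5% of all genes. It was higher than GFRA1neg for 4 of 6, beside 43.6% called, 18.8% higher and 24.9% lower, and these 4 did not overlap, beside 44.8%. Against KITpos it was lower for 2 of 6, Stra8 and Rhox13, beside 49.1% called, 21.8% higher and 27.3% lower, while 3 of 6 did not overlap, beside 35.9%. The median log2 change over the genes tested was -0.25, 1.27, 1.61, 0.91, 0.80 and -0.80 in these 6 comparisons, beside -0.04, 0.03, 0.07, -0.05, -0.09 and -0.09 over all genes. The comparisons share groups, so their counts do not stand apart from each other. Without the 4 libraries highest in spermatocyte markers, an alternative chosen after seeing the data, the 6 counts were 2, 5, 5, 5, 5 and 3. Fewer samples were fitted there. Over all genes, those called lower then went from 1057 to 515 in GFRA1pos minus GFRA1neg and from 3381 to 2121 in P6gonocyte minus GFRA1pos. In the latter Sohlh1 lost its call and Dmrtb1 gained one, so the count of 5 stayed the same. Dmrtb1 also gained the added call in P6gonocyte minus GFRA1neg and in P6gonocyte minus KITpos. The cut takes out the library highest in Dmrtb1 from each adult group, so these Dmrtb1 calls are not read as results.

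**Figure D2:**
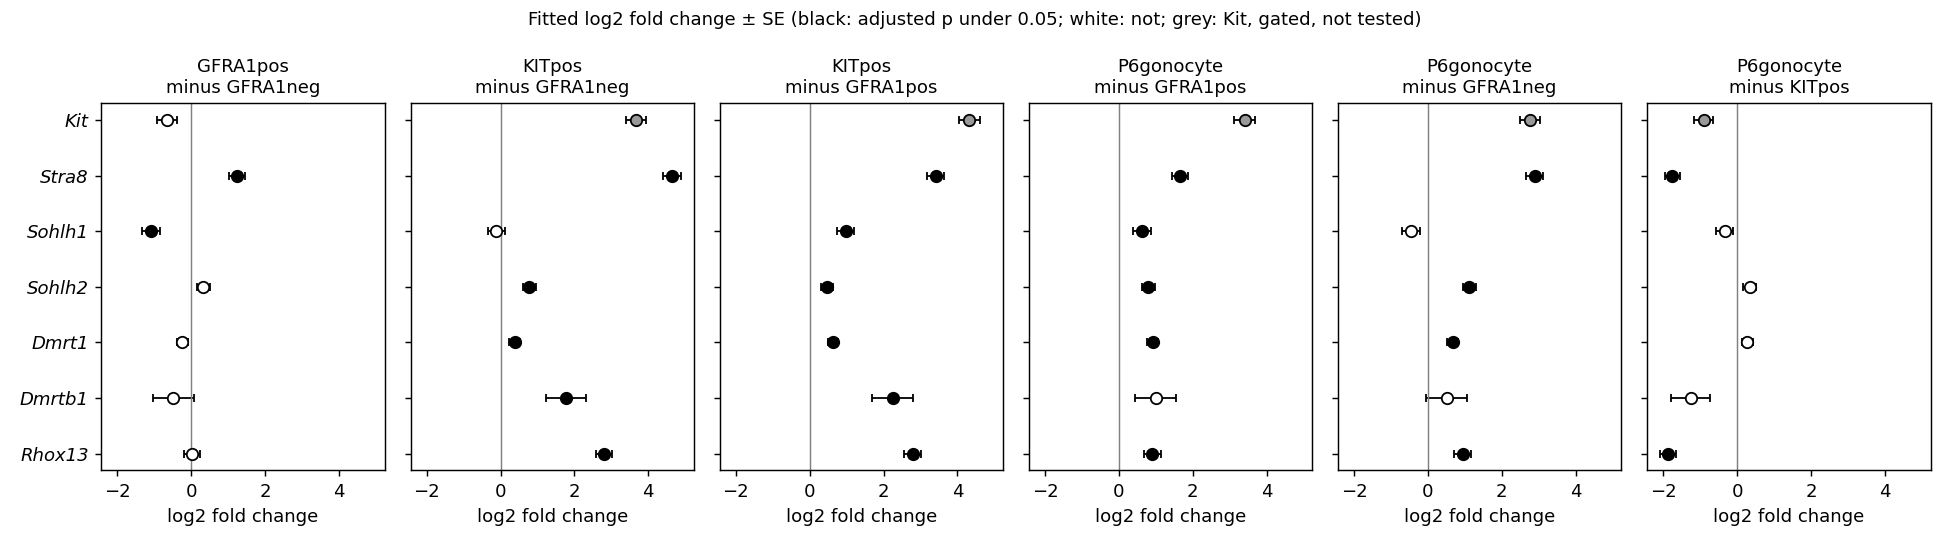
Fitted log2 fold change with its SE for each gene in the 6 comparisons, with black points for an adjusted p under 0.05, white points for the others and grey points for Kit where the gates differ on it. The Stra8 point reaches 4.64 in KITpos minus GFRA1neg, and the Sohlh1 point is negative and called in GFRA1pos minus GFRA1neg.

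Some libraries stood apart in markers of other cells. The 6 germ cell markers summed to between 1781 and 2822 CPM in the libraries of all groups. The 8 spermatocyte markers summed to 194 to 1115 CPM in GFRA1pos libraries and 448 to 2254 CPM in GFRA1neg libraries. In KITpos libraries the sum was 345 to 860 CPM, and in P6gonocyte libraries 106 to 112 CPM. Most of the P6gonocyte sum was Tbpl1, at a mean of 75.7 CPM. Tbpl1 was at 83.3, 105 and 129 CPM in GFRA1pos, GFRA1neg and KITpos, and so differed little between groups. Ldhc, the largest part of the adult sums by mean, was at 337, 511 and 224 CPM there and at 3.84 CPM in P6gonocyte. The highest sums were those of GFRA1neg replicate 2, GFRA1pos replicates 4 and 2, and KITpos replicate 1. The 7 spermatid markers ran from 62.9 to 1495 CPM in the adult libraries and from 6.97 to 9.44 in P6gonocyte. The 10 Sertoli cell markers reached at most 33.9 CPM in the adult libraries and ran from 49.0 to 158.5 in P6gonocyte, highest in replicate 2. The 7 Leydig cell markers ran from 21.8 to 98.9 CPM in KITpos and from 9.77 to 26.5 in the other groups. The 6 mast cell markers, of a Kit-positive cell type outside the germ line, summed to at most 0.972 CPM in any library, with Mcpt4, Fcer1a and Ms4a2 at 0 in every library. Total counts per library ran from 5178352 to 12641907, lowest in KITpos. The top row alone took from 9.62% (P6gonocyte replicate 3) to 29.9% (GFRA1neg replicate 3) of a library's counts. In P6gonocyte its share was at most 14.6%, below that in every adult library.

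Kit (Entrez 16590, chromosome 5) encodes the receptor for stem cell factor and was itself a gate. In KITpos its level was 266, 453, 401.5, 347 and 296 CPM in replicates 1 to 5. In GFRA1pos it was 12.6, 20.8, 17.01 and 20.2 CPM, and in GFRA1neg it was 24.2, 49.3, 18.5 and 18.5 CPM. In P6gonocyte, whose label names no gate on Kit, it was 172, 231, 182 and 166 CPM. All P6gonocyte libraries therefore lay above all Kit-negative libraries and below all KITpos libraries, and the KITpos values match the gate in the labels. The mean was 12.7-fold that of GFRA1neg and 19.99-fold that of GFRA1pos in KITpos, and 6.76-fold and 10.6-fold in P6gonocyte. In bulk libraries, fewer cells with a transcript and less of it per cell cannot be told apart.

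Kit transcripts were present in every Kit-negative library, and the 2 Kit-negative groups overlapped. Their difference was -0.65 ± 0.27 (log2, SE) in GFRA1pos minus GFRA1neg and was not called (edgeR adjusted p = 0.12). The highest value, 49.3 CPM, was that of GFRA1neg replicate 2, the library with the highest spermatocyte marker sum of all, at 2254 CPM. Without it the log2 difference between KITpos and GFRA1neg went from 3.67 to 4.11, and that between P6gonocyte and GFRA1neg from 2.76 to 3.20. Within KITpos, the lowest Kit value stood in replicate 1, which had the highest Leydig cell sum at 98.9 CPM. The part of either marker sum in the Kit values was not tested.

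The ligand of the receptor, Kitl, was low in the germ cell fractions. Its level was 0.525 CPM ± 0.253 in GFRA1pos, 0.342 ± 0.322 in GFRA1neg (SD, n = 4 each) and 0.470 ± 0.664 in KITpos (SD, n = 5). In P6gonocyte it was 4.92 CPM ± 0.869 (SD, n = 4), which was higher than in GFRA1neg by 3.86 ± 0.84 on the log2 scale (SE, edgeR adjusted p = 0.0012). The size of that change is uncertain, since few counts were seen in GFRA1neg. Sertoli cells make Kitl in the testis, and the summed Sertoli cell markers were also highest in P6gonocyte. Of the 8 tested markers 6 were called higher than in GFRA1neg, beside 18.8% of all genes. Their part in the Kitl value was not tested. Kitl is named here as the ligand, outside the rule for naming list genes.

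Behind the receptor, 36 of 37 listed genes of KIT signalling were tested. In KITpos minus GFRA1neg 7 were higher and 12 lower, where 22.1% of all genes were called higher and 23.0% lower. The median log2 change was -0.25 beside 0.03 over all genes. Those lower included Pik3cd, a catalytic subunit of PI3-kinase, at 6.25 against 40.0 CPM (-2.66 ± 0.22), and Plcg2, a phospholipase C, at 14.4 against 57.5 CPM (-1.99 ± 0.25). Cblb, a ubiquitin ligase that turns receptors over, was at 82.7 against 284 CPM (-1.78 ± 0.16), and the kinase Akt2 at 66.7 against 138 CPM (-1.05 ± 0.13). In KITpos minus GFRA1pos 10 were higher and 18 lower, with a median of -0.30 beside 0.07, where 24.9% of all genes were higher and 23.7% lower. The Src-family kinase Fyn fell from 95.7 CPM in GFRA1pos to 17.3 CPM in KITpos (-2.46 ± 0.16). The adaptor Grb10 rose there from 44.6 to 138 CPM (1.63 ± 0.17). Between the Kit-negative groups 4 were higher and 6 lower in GFRA1pos, beside 7.30% and 6.84% of all genes. Fyn was among the higher (1.30 ± 0.16) and Grb10 among the lower (-1.21 ± 0.18). P6gonocyte minus GFRA1neg gave 6 higher and 11 lower, beside 18.8% and 24.9% of all genes. P6gonocyte minus KITpos gave 12 higher and 6 lower, beside 21.8% and 27.3%. Without GFRA1neg replicate 2, 4 and not 7 of the list were called higher in KITpos than in GFRA1neg. The share of all genes called in that fit is not given here, so the change is not read as particular to this list.

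Stra8 (Entrez 20899, chromosome 6), the retinoic acid responsive gene, separated every pair of groups. It was at 24.2, 22.4, 19.5 and 27.5 CPM in GFRA1pos and at 10.4, 10.96, 9.47 and 8.88 CPM in GFRA1neg. In KITpos it was at 182, 329, 198, 262 and 272 CPM, and in P6gonocyte at 69.8, 111, 65.1 and 48.1 CPM. No group's libraries overlapped those of another, in the order GFRA1neg, GFRA1pos, P6gonocyte, KITpos. Stra8 was 25.0-fold higher in KITpos than in GFRA1neg (4.64 ± 0.24 on the log2 scale, SE, edgeR adjusted p = 4.9e-11) and 10.6-fold higher than in GFRA1pos (3.41 ± 0.23, edgeR adjusted p = 1.1e-09).

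Among the Kit-negative groups it was 2.36-fold higher in GFRA1pos (1.24 ± 0.23, edgeR adjusted p = 0.00098). That order is the opposite of the one seen for Sohlh1. P6gonocyte was above GFRA1pos by 1.65 ± 0.22 and above GFRA1neg by 2.89 ± 0.23, and below KITpos by a log2 change of -1.76 ± 0.21 (edgeR adjusted p = 3.2e-05, 1.2e-07 and 3.2e-06). All 6 Stra8 calls held under every alternative run. Within P6gonocyte the highest Stra8 value was in replicate 2, which was also highest for 6 of the 7 genes and in Sertoli cell markers.

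The promoter of Stra8 is shown because the gene had the highest fold of the 7 genes between KITpos and GFRA1neg, and is known to answer retinoic acid. The 250 bases before its start in RefSeq, on the plus strand of GRCm38.p6 at chr6:34920698-34920947, are printed in the direction of transcription, with the hexamer AGGTCA in capitals.
Stra8: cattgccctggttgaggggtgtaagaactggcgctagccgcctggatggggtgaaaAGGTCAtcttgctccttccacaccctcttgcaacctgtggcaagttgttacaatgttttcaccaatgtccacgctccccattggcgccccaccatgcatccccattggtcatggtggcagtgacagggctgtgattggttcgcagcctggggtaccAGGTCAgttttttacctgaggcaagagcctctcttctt
AGGTCA is the half-site bound by nuclear receptors such as those for retinoic acid. Searched on both strands, it stood 194 and 38 bases before the start. One or more copies were found in 4607 and 2 or more in 446 (1.36%) of 32851 RefSeq mouse promoter windows of the same length. ACANTGT, the core that DMRT1 binds, matched once as ACAATGT, 145 bases before the start, and 6.47% of windows hold it. The windows searched for the other genes matched held no AGGTCA apart from 1 copy in that of Sohlh1. A match is a description of the letters and not a bound site.

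Sohlh1 (Entrez 227631, chromosome 2) was at 30.5, 25.5, 39.8 and 35.2 CPM in GFRA1pos and at 65.9, 52.5, 80.9 and 79.0 CPM in GFRA1neg. All GFRA1pos libraries lay below all GFRA1neg libraries, a difference of -1.09 ± 0.24 (log2, SE, edgeR adjusted p = 0.0043), or 2.12-fold. KITpos was at 82.3, 75.4, 56.7, 76.8 and 29.6 CPM, so that replicate 5 fell within the GFRA1pos range. P6gonocyte was at 42.4, 59.2, 52.4 and 49.2 CPM.

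By mean the order of Sohlh1 was GFRA1pos at 32.7, P6gonocyte at 50.8, KITpos at 64.2 and GFRA1neg at 69.6 CPM. Between KITpos and GFRA1neg no difference was called (-0.11 ± 0.22, edgeR adjusted p = 0.71). KITpos was above GFRA1pos (0.97 ± 0.23, edgeR adjusted p = 0.0018). P6gonocyte was above GFRA1pos by 0.63 ± 0.24 (edgeR adjusted p = 0.043), a call lost in 10 of 18 alternatives, with adjusted p up to 0.14. It was lost on leaving out GFRA1pos replicate 1, 2 or 4, P6gonocyte replicate 2, 3 or 4, or the 4 libraries highest in spermatocyte markers. With all libraries kept it was also lost under upper-quartile scaling, with no count filter (edgeR adjusted p = 0.054 and 0.052) and with limma voom (adjusted p = 0.055). This difference between P6gonocyte and GFRA1pos thus depends on the method too. P6gonocyte was called neither against GFRA1neg (-0.45 ± 0.24, edgeR adjusted p = 0.13) nor against KITpos (-0.34 ± 0.23, edgeR adjusted p = 0.23). Without KITpos replicate 5 the last difference was -0.52, with an edgeR adjusted p = 0.018.

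Sohlh2 (Entrez 74434, chromosome 3), which can pair with SOHLH1, had another order. It was at 74.0, 63.8, 70.2 and 52.1 CPM in GFRA1pos and at 55.1, 45.3, 60.1 and 48.1 CPM in GFRA1neg, which overlapped and did not pass the test (0.32 ± 0.17, edgeR adjusted p = 0.26). KITpos was at 79.3, 118, 96.7, 96.9 and 57.3 CPM, and P6gonocyte at 111, 124, 109 and 108 CPM. The P6gonocyte libraries lay above all libraries of both Kit-negative groups, by 0.80 ± 0.17 over GFRA1pos and 1.12 ± 0.18 over GFRA1neg (edgeR adjusted p = 0.0015 and 8.0e-05). KITpos was above GFRA1neg by 0.78 ± 0.17 (edgeR adjusted p = 0.00077), with its replicate 5 inside the GFRA1neg range. Above GFRA1pos it was by 0.46 ± 0.17 (edgeR adjusted p = 0.026), a call lost in 8 of 19 alternatives with adjusted p up to 0.22. It was lost on leaving out GFRA1pos replicate 2 or 4, KITpos replicate 2, 3 or 4, or the 4 libraries highest in spermatocyte markers. With all libraries of both groups kept it was also lost without the 2 most abundant rows and with only the 2 groups fitted (edgeR adjusted p = 0.071 and 0.072). P6gonocyte and KITpos overlapped (0.34 ± 0.16, edgeR adjusted p = 0.097).

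The ratio of Sohlh2 counts to Sohlh1 counts within a library does not depend on how libraries are scaled. It was formed after the values were seen and is a description. It was 2.42, 2.51, 1.77 and 1.48 in GFRA1pos, 0.836, 0.863, 0.743 and 0.609 in GFRA1neg, 0.963, 1.57, 1.71, 1.26 and 1.94 in KITpos, and 2.63, 2.10, 2.09 and 2.20 in P6gonocyte. The 4 GFRA1neg libraries were the lowest of all 17, with a median of 0.789 beside 2.10, 1.57 and 2.15 in the other groups. KITpos replicate 5, low in both genes, had the highest ratio of its group. Since gene length is not accounted for, the ratio does not show which of the transcripts was more abundant.

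**Figure D3:**
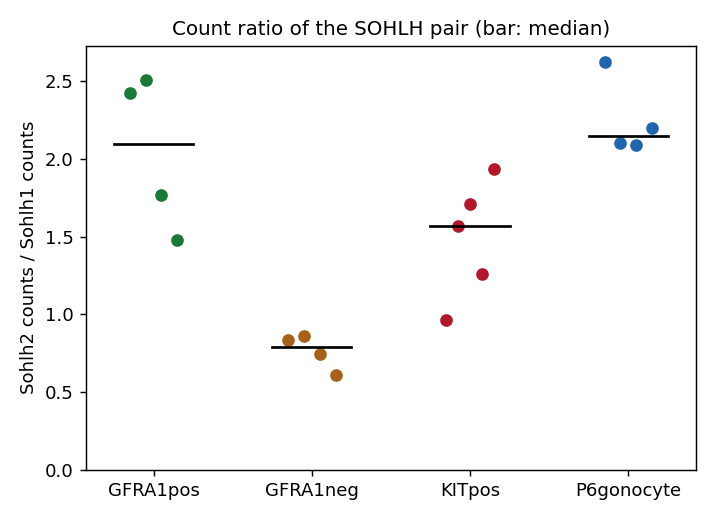
Ratio of Sohlh2 counts to Sohlh1 counts in each library by group, on an axis that starts at 0, with a bar at the group median. The 4 GFRA1neg libraries lie between 0.609 and 0.863, below the 13 libraries of the other groups.

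The Sohlh1 promoter is shown because Sohlh1 parted the Kit-negative groups in the direction opposite to Stra8. The 250 bases before its RefSeq start lie on the minus strand of GRCm38.p6 at chr2:25847249-25847498 and are printed in the direction of transcription. Capitals mark CACGTG, a form of the E-box CANNTG that basic helix-loop-helix factors bind.
Sohlh1: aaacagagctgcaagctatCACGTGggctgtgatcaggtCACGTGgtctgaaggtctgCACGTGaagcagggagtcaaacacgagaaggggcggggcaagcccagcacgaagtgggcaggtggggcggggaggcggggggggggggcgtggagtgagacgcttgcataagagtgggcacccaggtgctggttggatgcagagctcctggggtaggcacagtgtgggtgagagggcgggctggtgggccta
The 3 copies of CACGTG lay 231, 211 and 192 bases before the start, and 3 or more copies were found in 0.0609% of the 32851 windows of this length, 20 in all. One or more were found in 6.02%. This form was added to the search after the sequence had been seen. CANNTG, searched on both strands, matched 5 times in all, the other matches being CAGGTG at 134 and 70 bases before the start, and 66.2% of windows hold at least 1. AGGTCA matched once, overlapping the CACGTG at 211, and ACANTGT matched once. Of the other windows, Dmrtb1 held 2 CANNTG matches, Sohlh2 and Rhox13 held 1 each, and Kit held none of the 4 motifs. RefSeq windows were matched for 6 of the 7 genes, Dmrt1 being the other one. Kit and Dmrtb1 have 2 windows each in the table, of which 1 was searched, so these matches say nothing of the other window.

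Of 9 partners and inhibitors of such factors, 8 were tested. In KITpos minus GFRA1neg 5 were higher and 2 lower, beside 22.1% and 23.0% of all genes. Id2, an inhibitor of E-proteins, was called higher at 2.33 against 0.0689 CPM, too low in GFRA1neg for a fold to be given. The E-protein gene Tcf12 was at 164 against 110 CPM (0.57 ± 0.11), and Tcf4, another E-protein gene, at 11.1 against 24.8 CPM (-1.16 ± 0.19). Lhx8, which with SOHLH1 and SOHLH2 is known from oocyte differentiation, was at 14.7 against 5.93 CPM (1.31 ± 0.29). Between the Kit-negative groups Lhx8 was lower in GFRA1pos (-1.81 ± 0.32), as Sohlh1 was. There Id3, another such inhibitor, was higher, at 6.34 against 0.517 CPM (3.60 ± 0.64), a change of uncertain size at so low a GFRA1neg level. These were the 2 of 8 called in that comparison, beside 14.1% of all genes.

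Dmrt1 (Entrez 50796, chromosome 19) was at 88.5, 60.1, 89.8 and 70.3 CPM in GFRA1pos, at 85.8, 75.7, 110.5 and 95.7 in GFRA1neg, at 103, 139, 104, 122 and 132 in KITpos, and at 141, 164, 144 and 134 in P6gonocyte. All P6gonocyte and all KITpos libraries lay above all GFRA1pos libraries, and the Kit-negative groups overlapped (-0.25 ± 0.15, edgeR adjusted p = 0.31). P6gonocyte was above GFRA1pos by 0.92 ± 0.15 and above GFRA1neg by 0.66 ± 0.15 (edgeR adjusted p = 0.00019 and 0.0017). KITpos was above GFRA1pos by 0.64 ± 0.14 (edgeR adjusted p = 0.0013). Its difference from GFRA1neg, 0.38 ± 0.14 (edgeR adjusted p = 0.036), was lost in 9 of 19 alternatives, with adjusted p up to 0.12. It was lost on leaving out GFRA1neg replicate 1, 2 or 4 or KITpos replicate 2, 4 or 5. With all libraries of both groups kept it was also lost without the 2 most abundant rows, with the replicate block and with only the 2 groups fitted (edgeR adjusted p = 0.074, 0.082 and 0.0998). P6gonocyte and KITpos were not called apart (0.28 ± 0.14, edgeR adjusted p = 0.11).

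Dmrtb1 (Entrez 56296, chromosome 4) spread widely within both Kit-negative groups. In KITpos it was at 103, 66.3, 85.1, 81.4 and 68.3 CPM, above every library of the other groups. It was at 2.57, 18.9, 10.4 and 35.9 CPM in GFRA1pos, at 7.71, 57.1, 12.4 and 17.5 CPM in GFRA1neg, and at 32.2, 42.9, 34.8 and 25.3 CPM in P6gonocyte. The highest value exceeded the lowest 13.95-fold within GFRA1pos and 7.40-fold within GFRA1neg, beside 1.56-fold in KITpos and 1.70-fold in P6gonocyte. KITpos was above GFRA1neg by 1.76 ± 0.54 and above GFRA1pos by 2.25 ± 0.55 (edgeR adjusted p = 0.012 and 0.0023).

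P6gonocyte was not called against GFRA1pos (0.99 ± 0.56, edgeR adjusted p = 0.17), GFRA1neg (0.51 ± 0.55, edgeR adjusted p = 0.48) or KITpos (-1.26 ± 0.53, edgeR adjusted p = 0.057), although it did not overlap KITpos. The Kit-negative groups overlapped (-0.49 ± 0.55, edgeR adjusted p = 0.64). Without GFRA1neg replicate 2 that difference turned to 0.44, also not called. The row may hold reads of the genes Gm12899 and 1700047F07Rik, which overlap Dmrtb1 in RefSeq and were matched to no row of their own, since the use of strand in counting is not stated.

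Dmrtb1 moved with spermatocyte markers among the Kit-negative libraries. In GFRA1pos replicates 1, 3, 2 and 4 the summed spermatocyte markers were 194, 335, 933 and 1115 CPM, in the same order as Dmrtb1. In GFRA1neg replicate 2 the sum was 2254 CPM, beside 448 to 699 CPM in the other libraries of that group. GFRA1neg replicate 1 departed from that order, with a sum of 556 CPM and the lowest Dmrtb1 of its group. In P6gonocyte, sums of 106 to 112 CPM stood beside 25.3 to 42.9 CPM of Dmrtb1. Without the 4 libraries highest in these markers, Dmrtb1 was above GFRA1pos by 2.43 and above GFRA1neg by 1.51 in P6gonocyte. That cut takes out the library highest in Dmrtb1 from each adult group and leaves GFRA1pos with replicates 1 and 3 only. Lower Dmrtb1 in the adult groups then follows from the cut, so no p-value is given for it. KITpos was still above P6gonocyte, with P6gonocyte minus KITpos at -1.10. KITpos was above GFRA1neg by 2.60 and above GFRA1pos by 3.53. Leaving out only GFRA1neg replicate 2 gave 1.44 for P6gonocyte minus GFRA1neg and 2.69 for KITpos minus GFRA1neg. Leaving out only GFRA1pos replicate 4 gave 1.65 for P6gonocyte minus GFRA1pos. Each of these libraries had the highest Dmrtb1 of its group, so leaving it out raises these differences, and no p-value is given for them. Whether Dmrtb1 in the Kit-negative libraries comes from spermatocytes was not tested.

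**Figure D4:**
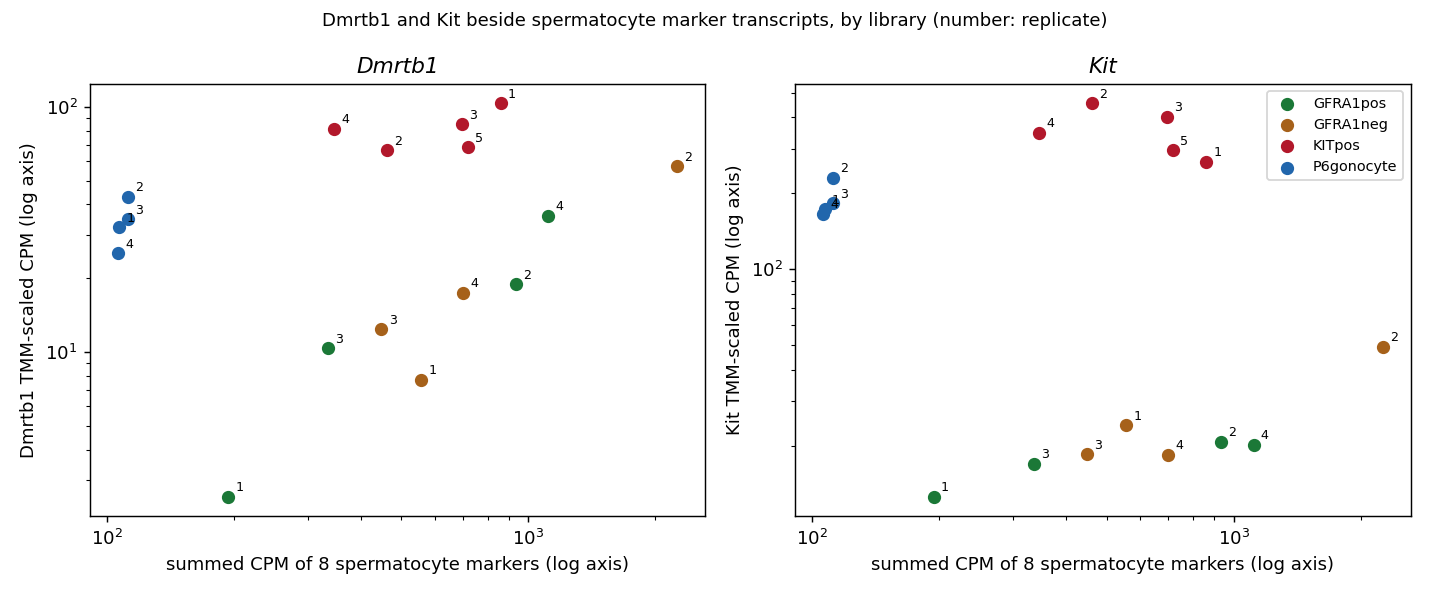
Dmrtb1 (left) and Kit (right) against the summed level of 8 spermatocyte markers, in TMM-scaled CPM on log axes, with 1 point per library coloured by group and numbered by replicate. Among Kit-negative libraries Dmrtb1 is lowest, at 2.57 CPM, where the sum is 194 CPM and highest, at 57.1 CPM, where it is 2254 CPM. KITpos libraries lie above Kit-negative libraries of like sums, and P6gonocyte libraries join the lowest sums to 25.3 to 42.9 CPM of Dmrtb1.

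Of the 9 other DMRT genes listed 7 were tested. Between the Kit-negative groups Dmrt2 and Dmrt3 were higher in GFRA1pos, at 15.3 against 2.56 CPM (2.58 ± 0.35) and 31.1 against 8.52 CPM (1.87 ± 0.26), while Dmrt1 and Dmrtb1 were not called. Dmrtc1c1 and Dmrtc1c2 were lower there, at 2.96 against 7.58 CPM (-1.34 ± 0.31). Dmrt2 was at 1.07 CPM in KITpos, below GFRA1pos by a log2 change of -3.85 ± 0.36. In KITpos minus GFRA1neg 4 were higher and 1 lower, beside 22.1% and 23.0% of all genes. The pair Dmrtc1c1 and Dmrtc1c2 was at 29.8 against 7.58 CPM there. It has the same counts in every library and cannot be told apart, but makes up 2 of the 4 higher. Dmrtc2 was lower in P6gonocyte than in GFRA1neg, at 2.19 against 16.6 CPM (-2.90 ± 0.36). Without GFRA1neg replicate 2, 2 of the 7 were called higher in KITpos than in GFRA1neg. The share of all genes called in that fit is not given here, so the change is not read as particular to this list.

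Rhox13 (Entrez 73614, chromosome X) was at 43.0, 38.2, 37.9, 59.5 and 45.0 CPM in KITpos, above every other library. P6gonocyte was at 14.02, 11.5, 10.3 and 12.9 CPM. The Kit-negative groups were at 7.28, 7.22, 5.33 and 6.00 CPM in GFRA1pos and at 6.49, 4.00, 8.55 and 6.52 CPM in GFRA1neg, all below P6gonocyte. KITpos was 7.02-fold above GFRA1neg (2.81 ± 0.22, edgeR adjusted p = 1.2e-08) and 6.91-fold above GFRA1pos (2.79 ± 0.22, edgeR adjusted p = 1.0e-08). P6gonocyte was above GFRA1pos by 0.91 ± 0.22 and above GFRA1neg by 0.94 ± 0.22 (edgeR adjusted p = 0.0033 and 0.0024), and below KITpos by a log2 change of -1.88 ± 0.21 (edgeR adjusted p = 1.7e-06). These 5 calls held under every alternative run. The Kit-negative groups differed by 0.02 ± 0.22 (edgeR adjusted p = 0.96), and Stra8 separated them while Rhox13 did not pass the test. Rhox13 overlaps Gm39506 in RefSeq, which had no row matched, and its counts may include reads from it.

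Of 29 other RHOX genes listed, 21 were tested. In GFRA1pos minus GFRA1neg 10 were higher and 1 lower, beside 7.30% and 6.84% of all genes, with a median of 0.95 beside -0.04 over all genes. In KITpos minus GFRA1neg 7 were higher and 1 lower, beside 22.1% and 23.0% of all genes, with a median of 0.81 beside 0.03. In KITpos minus GFRA1pos 5 were higher and 8 lower, beside 24.9% and 23.7%. P6gonocyte minus GFRA1neg gave 14 higher and none lower, beside 18.8% and 24.9% of all genes, with a median of 2.01 beside -0.09. Rhox2e was at 68.9 CPM in P6gonocyte, 62.2 in KITpos, 31.6 in GFRA1pos and 17.1 in GFRA1neg. The Rhox2, Rhox3 and Rhox4 genes are near-identical copies that counting may split, so single values are uncertain. Rows of such copies may repeat the same signal, so the counts and medians of this list do not rest on 21 separate genes. Rhox8, a Sertoli cell marker, was at 4.16 CPM in P6gonocyte against 0.271 in GFRA1neg (3.90 ± 0.52), beside the higher Sertoli cell sums there. At so low a level in GFRA1neg the size of the change is uncertain. Without the 4 libraries highest in spermatocyte markers, 1 RHOX gene and not 10 was called higher in GFRA1pos than in GFRA1neg. Fewer samples were fitted there, with GFRA1pos replicates 2 and 4 left out, and the cause of the loss was not tested. The share of all genes called higher in that fit is not given here, so the loss is not read as particular to this list.

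Genes of the state before differentiation fell in KITpos, where Stra8 and Rhox13 rose. All 12 listed progenitor and maintenance genes were tested. This list, like the others here, was chosen with earlier results of these data known, so its counts beside those of all genes are a description. In KITpos minus GFRA1neg 11 were lower and 1 higher, beside 23.0% and 22.1% of all genes, with a median of -3.02 beside 0.03 over all genes. Zbtb16, the transcription factor PLZF, was at 39.3 against 404 CPM (-3.36 ± 0.20). Lin28a, an RNA-binding protein gene, was at 90.8 against 688 CPM (-2.92 ± 0.15), and Foxo1 at 122 against 637 CPM (-2.38 ± 0.17). In GFRA1pos minus GFRA1neg 7 were lower and 1 higher, beside 6.84% and 7.30% of all genes. Among the lower were Neurog3, a progenitor transcription factor, at 5.08 against 39.3 CPM (-2.95 ± 0.39), and Rarg, a retinoic acid receptor, at 8.56 against 44.0 CPM (-2.36 ± 0.23). GFRA1neg thus had the higher level of Neurog3, Rarg and Sohlh1 and the lower level of Stra8. In P6gonocyte minus GFRA1neg 9 were lower and 1 higher, beside 24.9% and 18.8% of all genes.

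Of 12 other genes linked to differentiation 11 were tested. In KITpos minus GFRA1neg 5 were higher and 3 lower, beside 22.1% and 23.0% of all genes, with a median of 0.29 beside 0.03. Crabp1, a retinoic acid binding protein gene, was at 207 against 36.5 CPM (2.51 ± 0.23), and cyclin gene Ccna2 at 310 against 101 CPM (1.62 ± 0.12). In GFRA1pos minus GFRA1neg 4 were higher and 4 lower, beside 7.30% and 6.84% of all genes. Among the higher was Ccnd2, another cyclin gene, at 349 against 74.2 CPM (2.24 ± 0.17). Ccnd2 was at 47.7 CPM in KITpos, below both Kit-negative means and so unlike Stra8. P6gonocyte minus GFRA1neg gave 8 higher and none lower, beside 18.8% and 24.9% of all genes. Ccna2, Ccnb1 and Ccnd2 were higher there by 1.69 ± 0.12, 1.66 ± 0.12 and 1.80 ± 0.17.

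Of 16 early meiotic genes listed, 15 had a row and were tested. In KITpos minus GFRA1pos 14 were higher and none lower, beside 24.9% and 23.7% of all genes. The median was 1.31 beside 0.07 over all genes. In KITpos minus GFRA1neg 9 were higher, none lower and 6 not called, where 22.1% of all genes were higher and 23.0% lower. Prdm9, which places recombination sites, was at 29.5 CPM in KITpos, 2.90 in GFRA1neg and 2.43 in GFRA1pos. Meioc, needed for the meiotic programme, was at 118 CPM in KITpos, 39.6 in GFRA1neg, 14.3 in P6gonocyte and 10.99 in GFRA1pos. In GFRA1pos minus GFRA1neg 5 were lower and none higher, beside 6.84% and 7.30% of all genes. Meioc (-1.85 ± 0.32) and the synaptonemal complex gene Sycp3 (-1.67 ± 0.38) were among the lower, whereas Stra8 was higher. P6gonocyte minus KITpos gave 1 higher and 9 lower, beside 21.8% and 27.3% of all genes. In the adult groups the spermatocyte marker sums stood beside these values as given above, and their part was not tested. Without the 4 libraries highest in them, 3 and not 5 meiotic genes were called lower in GFRA1pos than in GFRA1neg. Fewer samples were fitted there, and over all genes those called lower went from 1057 to 515.

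**Figure D5:**
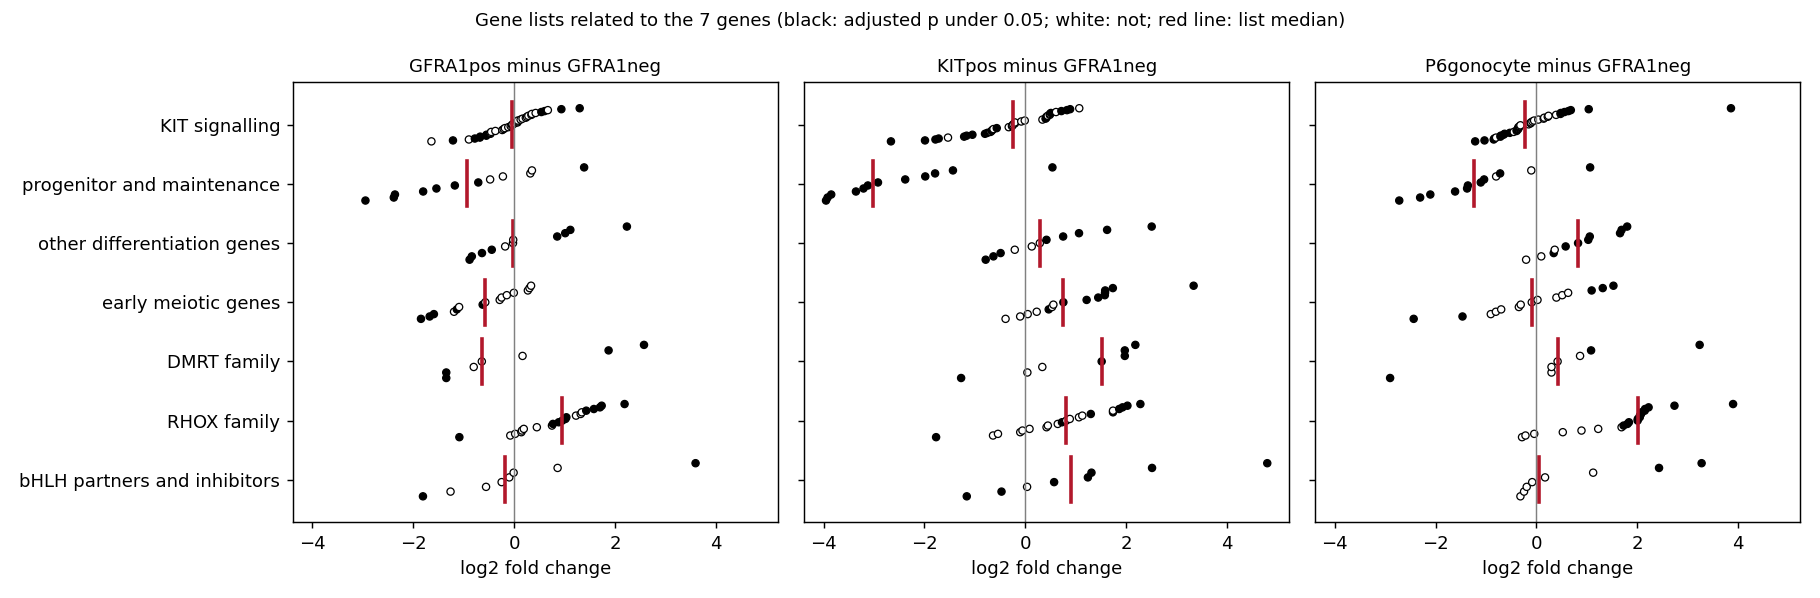
Log2 fold change of each tested gene in the 7 lists for GFRA1pos, KITpos and P6gonocyte, each minus GFRA1neg, with black points for an adjusted p under 0.05, white points for the others and a red line at the list median. The median of the progenitor and maintenance list lies at -3.02 in KITpos minus GFRA1neg, and that of the RHOX list at 2.01 in P6gonocyte minus GFRA1neg. The RHOX list holds near-identical copies, whose rows may repeat the same signal.

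Likeness of pattern was measured as Pearson's r of log2(CPM + 1) over the 17 libraries, which share 4 groups, and is given as a description. Among the 7 genes r was 0.92 for Stra8 with Rhox13, 0.91 for Kit with Stra8, 0.84 for Kit with Rhox13 and 0.82 for Kit with Dmrtb1. Sohlh1 had r of 0.10 with Stra8 and at most 0.36, with Dmrt1, among the other genes. Over 8199 genes compared, the genes most like Kit were Arhgef26 at 0.96, Atp5pb at 0.96 and Lonrf3 at 0.95. Those most like Stra8 were Dnajc9 at 0.98, Hmgn2 at 0.98 and Tmem9 at 0.97. For Sohlh1 the highest values were lower, with Sesn3 at 0.87, Cope at 0.85 and Acap3 at 0.84. Sohlh2 was most like Kif20a, Magea2 and Samm50, at 0.95, 0.95 and 0.94. Dmrt1 was most like Arf4, Nedd4 and Taf7l, at 0.94, 0.93 and 0.93. Dmrtb1 was most like Vdac2 at 0.98, Baz1a at 0.94 and Bpgm at 0.93. Rhox13 was most like Snx16 at 0.97, Rpl22 at 0.97 and Polr2j at 0.97.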

How the data were processed

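Counts came from 17 libraries grouped by sample title. Testes were digested in steps, the first to take off interstitial cells, per the labels' protocols, and RNA of sorted cells was amplified with NuGEN Ovation V2, made into TruSeq V2 libraries and sequenced with paired ends, in the same way for all groups. The deposited table held raw counts per gene, as its whole numbers show. The submitters' processing notes list, with no roles, Bowtie, Bowtie2 2.0.0-6, TopHat2 2.0.4, Trim Galore, DESeq, DESeq2 and the mm9 build. How reads were counted, on which annotation and with which strand setting was not given in the sources used here. GFRA1pos replicate 1 rests on reading GFP in a column name as a slip for GFR. Symbols were matched by Entrez number for 23930 of 24013 rows with RefSeq (GRCm38.p6), used with its promoter windows for names and sequences only. The labels name no batch or date.

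A quasi-likelihood F-test (edgeR 4.0.16, R 4.3.3) was fitted to all 17 libraries (TMM, filterByExpr, 1 mean per group, Benjamini-Hochberg adjusted p under 0.05), after the step was tested on simulated data. The common biological coefficient of variation was 0.3. Replicate pairs differed by a chi-square per degree of freedom of 3.89 to 46.5 over 28 pairs. Values ± SE are log2 fold changes. The 7 genes, gene lists and tests were chosen with earlier results of these data known. Named list genes are up to 4 per list and comparison with the smallest adjusted p, and the 3 genes most like each of the 7 among those reaching a group mean of 20 CPM. Alternatives were upper-quartile and RLE scaling, no filter, 1 CPM in 4 libraries, DESeq2 1.42.0, limma 3.58.1 voom, only the 2 groups compared, the replicate number as a block, the 2 most abundant rows left out, and each replicate left out. Leaving out the 4 libraries highest in spermatocyte markers was added after seeing the data.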

Additional observations from a re-analysis of the deposited data

How the results depend on the processing

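The number of the 7 genes called in GFRA1pos minus GFRA1neg was 2 under each alternative run. Leaving out 1 replicate gave 4 to 5 calls in KITpos minus GFRA1neg, 5 to 6 in KITpos minus GFRA1pos, 4 to 5 in P6gonocyte minus GFRA1pos, 4 to 5 in P6gonocyte minus GFRA1neg and 2 to 3 in P6gonocyte minus KITpos. The count in P6gonocyte minus KITpos went from 2 to 4 without the 2 most abundant rows, which added Sohlh2 (0.43, edgeR adjusted p = 0.041) and Dmrt1 (0.37, edgeR adjusted p = 0.035); the cause was not tested. Dmrtb1 was also called there with limma voom (adjusted p = 0.032) and with only the 2 groups fitted (edgeR adjusted p = 0.00011), and Sohlh2 without KITpos replicate 2 (0.46, edgeR adjusted p = 0.024). Sohlh1 was called in P6gonocyte minus GFRA1neg with only the 2 groups fitted (-0.41, edgeR adjusted p = 0.032). Dmrtb1 gained a call there only where GFRA1neg replicate 2, the library of that group highest in it, was left out. Differences that had not been called changed sign in 7 settings. Rhox13 in GFRA1pos minus GFRA1neg went to -0.04 and -0.03 without GFRA1pos replicates 1 and 2, to -0.15 without GFRA1neg replicate 2 and to -0.13 without the 4 libraries highest in spermatocyte markers. Dmrtb1 there went to 0.44 without GFRA1neg replicate 2. Sohlh1 in KITpos minus GFRA1neg went to 0.065 without KITpos replicate 5. With 1 replicate left out at a time these 3 differences ran from -0.15 to 0.19, from -1.15 (without GFRA1pos replicate 4) to 0.44, and from -0.23 (without GFRA1neg replicate 2) to 0.065. Over all genes, those called lower went from 1057 to 515 in GFRA1pos minus GFRA1neg and from 3381 to 2121 in P6gonocyte minus GFRA1pos without those 4 libraries, where fewer samples were fitted. The median of all genes moved past 0.1 on the log2 scale in a few settings, as far as 0.13 in KITpos minus GFRA1pos without those libraries and -0.12 in P6gonocyte minus GFRA1neg with upper-quartile scaling. Over the values of the 7 genes under the alternatives, 725 kept direction and call, 27 lost a call, 14 gained one and 7 changed sign. Kit had no call where it was a sort gene. Its values there count among the 725 where the log2 change moved by less than its spread within groups. The other 4 values were of Kit in such comparisons and moved further. Levels of Dmrtb1 and Rhox13 in Kit-negative libraries went down to 2.57 and 4.00 CPM, where counting error weighs more than at higher levels.

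The labels tie no replicate number to a shared animal or day, and in no comparison did every same-numbered pair correlate over 0.1, so the numbers were not taken to pair the samples. Between GFRA1pos and GFRA1neg r was 0.475, 0.517, 0.366 and 0.033 in replicates 1 to 4, so these 2 groups may be paired in part, which the main fit does not model. Fitting the replicate number as a block kept the calls of the 7 genes in that comparison. Over all comparisons, deviations of same-numbered libraries correlated between -0.458 and 0.517, over 0.1 in 6 of 24 pairs, and 7 of 24 libraries were most like the one with their own number. With the replicate number as a block, 4 and not 2 of the 7 genes were called in P6gonocyte minus KITpos, adding Sohlh1 (-0.52, edgeR adjusted p = 0.024) and Dmrtb1 (-1.40, edgeR adjusted p = 0.044). With the block Sohlh1 in KITpos minus GFRA1neg was 0.083, and Dmrt1 there was not called (0.36, edgeR adjusted p = 0.082). The block changed no other call of the 7 genes.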
